A study of Mus musculus with 2 samples.

Results

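The forkhead (Fox) genes encode transcription factors that share a winged-helix DNA-binding domain. The genes described here were all protein-coding genes of the GENCODE M21 annotation whose symbol is Fox, a letter from a to s and a number, except Foxa1, Foxf1 and Foxf2. The rule used symbols only and no measured value, though it was set with earlier results of these data known. It gave 41 genes of 21938. Open chromatin was mapped by DNase-seq in whole urinary bladders. The mice were B6CASTF1/J females (C57BL/6J by CAST/EiJ F1 hybrids) at 4 days of age. The study has 1 group of 2 biological replicates, with 1 library each, and no treated or mutant group. The labels number the 2 females separately but give them the same donor identifier, so the spread between them may be partly technical. Positions are on mm10. Each library holds all cell types of the organ and both parental genomes, so fewer cells with an open site and less opening per cell cannot be told apart.

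Forkhead factors bind DNA through related short sites, and several of them, the FOXA factors foremost, can bind their sites in compact chromatin and open it. FOXO factors carry insulin and growth-factor signals to the nucleus, because AKT phosphorylation moves them out of it, and FOXM1 drives genes of the G2 and M phases of the cell cycle. Other members are known for single lineages: FOXJ1 for motile cilia, FOXE3 for the lens, FOXN1 for the thymus, FOXC and FOXD factors for mesenchyme, vessels and the neural crest. An open promoter shows that DNase I could reach the DNA there and does not by itself give a gene's RNA level.

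Foxd2 and Foxe3 show the contrast found within the family on a single stretch of DNA. Their 5′ ends lie 17.14 kb apart on chromosome 4, on the minus strand. Both are CpG-rich in the 500 bp around the GENCODE 5′ end, as defined below. Foxd2, a mesenchymal gene, had a promoter peak of 2.52 in replicate 1 and 2.53 in replicate 2, in the deposited signal units. Foxe3, the lens gene, had none in either. The 250 bases before each RefSeq 5′ end (GRCm38.p6, the assembly of mm10) are shown 5′ to 3′, with every CG in capitals.
Foxd2, chr4:114908899-114909148, minus strand: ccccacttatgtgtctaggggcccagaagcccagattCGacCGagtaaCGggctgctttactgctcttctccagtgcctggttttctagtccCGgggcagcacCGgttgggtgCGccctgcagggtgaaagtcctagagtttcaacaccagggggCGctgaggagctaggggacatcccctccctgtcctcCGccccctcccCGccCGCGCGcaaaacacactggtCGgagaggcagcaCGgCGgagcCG
Foxe3, chr4:114926068-114926317, minus strand: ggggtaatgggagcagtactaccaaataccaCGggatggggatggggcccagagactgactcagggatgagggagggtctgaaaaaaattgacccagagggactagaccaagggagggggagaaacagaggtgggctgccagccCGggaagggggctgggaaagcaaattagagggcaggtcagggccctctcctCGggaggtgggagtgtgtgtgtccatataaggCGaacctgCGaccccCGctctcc
The Foxd2 stretch holds 16 CG and the Foxe3 stretch 6, so in this stretch Foxe3 is below the median of all genes. Over the 26 members with an entry in the RefSeq promoter table, the median number of CG in this stretch was 17.5, against 11 over 16522 protein-coding genes with an entry, where the entry with most CG was taken if a gene had several. The median was 27.0 over the 13 of these members open in both replicates and 7.0 over the 7 open in neither. In the wider 500 bp around the GENCODE 5′ end, Foxe3 is 69.0% GC with an observed over expected CpG ratio of 0.775, and Foxd2 is 71.8% GC with a ratio of 0.855.

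The sequences of 4 distal open regions are shown as well, because they are among the tallest near members and their letters are referred to below. Foxn3 has the tallest of all. The regions of Foxj2, Foxo3 and Foxc1 are those among the 10 tallest that hold the core letters of the CTCF motif in their central 150 bp, which are in capitals (AGGGGGC or AGGTGGC, on either strand). All are given on the plus strand of mm10.
Foxn3, chr12:99392041-99392260: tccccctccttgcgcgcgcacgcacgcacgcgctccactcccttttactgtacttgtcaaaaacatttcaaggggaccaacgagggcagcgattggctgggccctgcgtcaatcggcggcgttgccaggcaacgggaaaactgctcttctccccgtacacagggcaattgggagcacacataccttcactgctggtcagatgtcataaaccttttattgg
Foxj2, chr6:122810961-122811180: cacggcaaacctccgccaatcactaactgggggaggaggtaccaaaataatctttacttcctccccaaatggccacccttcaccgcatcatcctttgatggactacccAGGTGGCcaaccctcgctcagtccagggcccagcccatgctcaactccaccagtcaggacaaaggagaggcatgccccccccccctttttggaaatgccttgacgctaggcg
Foxo3, chr10:42278041-42278280: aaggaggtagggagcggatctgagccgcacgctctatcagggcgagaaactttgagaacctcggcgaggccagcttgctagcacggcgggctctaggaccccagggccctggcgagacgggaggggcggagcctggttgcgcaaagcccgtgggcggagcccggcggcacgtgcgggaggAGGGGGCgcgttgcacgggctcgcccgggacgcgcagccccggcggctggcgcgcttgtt
Foxc1, chr13:31801281-31801460: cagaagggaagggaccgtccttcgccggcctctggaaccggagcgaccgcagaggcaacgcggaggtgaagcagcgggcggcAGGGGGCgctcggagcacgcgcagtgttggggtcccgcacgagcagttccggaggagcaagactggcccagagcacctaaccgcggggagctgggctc

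Peak heights in each library were whole multiples of 1 step, 0.00466 signal units in replicate 1 and 0.00417 in replicate 2, so the depth of the replicates would differ 1.12-fold if both were scaled to the same total. The looser peak lists, used here, held 96518 and 122870 peaks. The labelled tissue was checked against marker genes. All 6 fibroblast markers and 6 of 7 smooth muscle markers had a promoter peak in both replicates, as did 5 of 10 urothelium markers and 3 of 5 endothelium markers. Over all protein-coding genes the share was 62.3%, and the urothelium (50%) and endothelium (60%) shares did not exceed it. Of the other urothelium markers 3 had a peak in 1 replicate only and 2 in neither. None of 4 leukocyte markers and none of 4 liver markers had one in either replicate.

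A gene was called open when any of its transcription start sites (TSS) had a peak reaching within 500 bp of it. The height is that of the tallest such peak. Of the 41 forkhead genes, 21 were open in both replicates, which is 51.2%, against 62.3% of all protein-coding genes. A further 8 were open in 1 replicate only, 19.5% against 5.52% of all genes. The other 12 had no promoter peak in either replicate, 29.3% against 32.2%. With 1 group, these are descriptions without a test. In the stricter peak lists 19 members were open in both replicates, or 46.3%, against 55.0% of all genes. Only 4 were open in 1 replicate there, or 9.76%, against 5.73%.

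The calls differed between roles. All 4 FOXO genes, all 4 FOXP genes and all 7 broadly expressed or cell cycle members were open in both replicates. Of these 15 genes 14 have a CpG-rich promoter as defined below, a class in which 94.2% of all genes were open in both, so the full count is near that share. Of the 6 mesenchymal and vascular members 3 were open in both, and of the 9 endodermal and epithelial members 2. Of the 4 genes of the early embryo, gonad and germ line 1 was, and of the 7 genes of the nervous system, neural crest and eye 0. Promoter class also differs. Among endodermal and epithelial members only Foxe1, Foxi3 and Foxj1 are CpG-rich, and Foxi3 and Foxj1 are the open ones. In the nervous system group Foxb1, Foxd3, Foxe3 and Foxn4 are, and none was open in both. All mesenchymal and vascular members but Foxs1 are, as are Foxl2 and Foxr1 of the embryo group. Without such a promoter 33.5% of all genes were open in both. Whether promoter class accounts for the role differences was not tested.

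**Figure D1:**
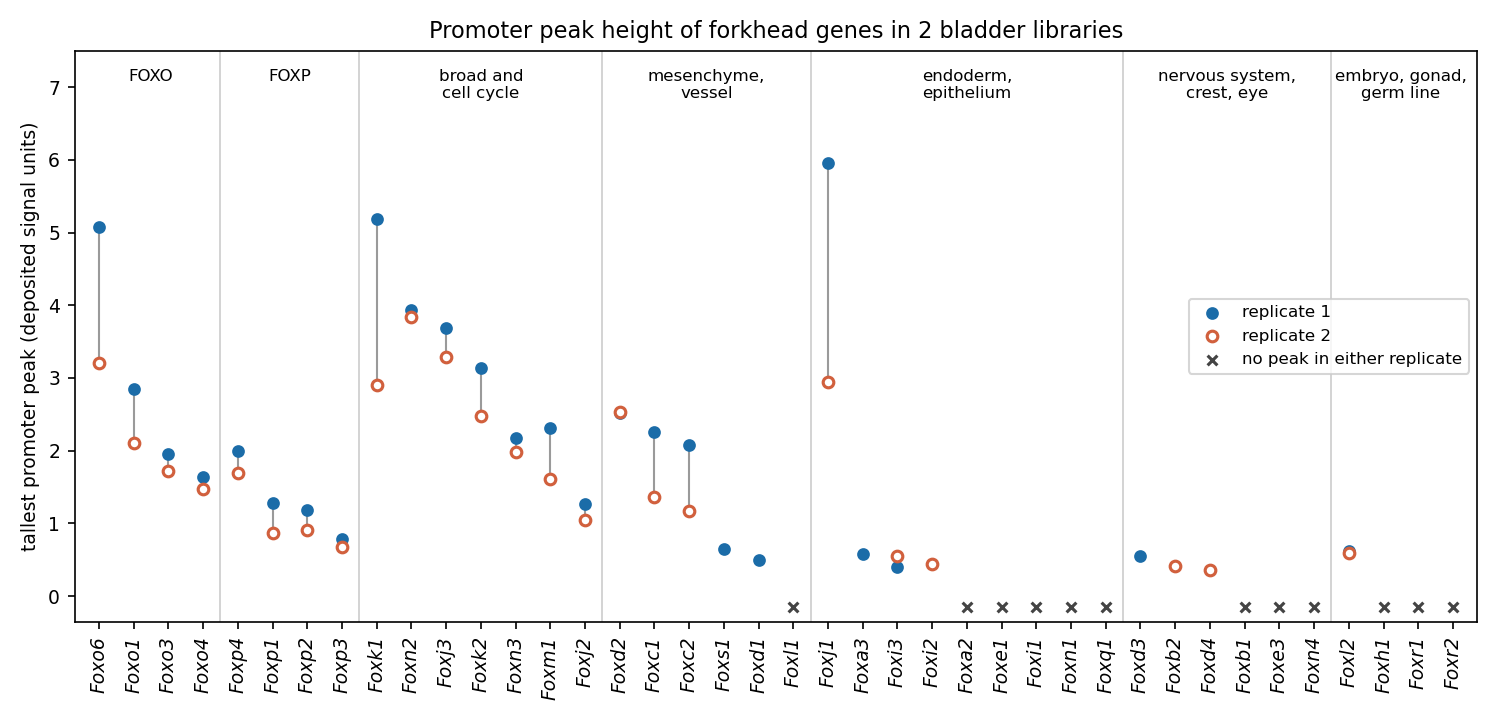
Height of the tallest promoter peak (vertical axis, deposited signal units) of the forkhead genes named in the text, grouped by role, in replicate 1 (filled) and replicate 2 (open circles), with lines joining the replicates and crosses for genes with no peak. Every gene of the FOXO, FOXP and broad groups has a circle for both replicates, and all genes with a single circle or a cross are in the other groups. The circles of Foxd2 and Foxl2 coincide.

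Among the FOXO genes, the effectors of insulin signalling, Foxo6 had the tallest promoter peak, at 5.07 in replicate 1 and 3.20 in replicate 2. Foxo6 is best known from the brain. Its peak is centred 616.5 bp upstream of the 5′ end and reached the window only with its edge. Foxo1, with roles in metabolism and vessels, had 2.85 and 2.11. Foxo3, a regulator of quiescence and survival, had 1.96 and 1.72, and Foxo4, on the X chromosome, had 1.64 and 1.47. In the 500 bp window the order of the 4 genes was the same in both replicates. A Foxo3 region centred 1.03 kb upstream, outside that window and counted as distal, had 4.96 and 3.13, above the Foxo1 promoter.

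Among the FOXP genes Foxp4 was close to Foxo3 in the 500 bp window. The other 3 were lower there than every FOXO gene in both replicates. Foxp4, expressed in developing lung and gut, had 2.00 and 1.70. Foxp1, with roles in heart, lung and lymphocytes, had 1.29 and 0.871, and Foxp2, known from brain and lung, had 1.18 and 0.913. Foxp3, the factor of regulatory T cells, had 0.792 and 0.671. The Foxp3 window also holds start sites of Flicr and Ppp1r3f, so its peak cannot be given to Foxp3 alone. All 4 leukocyte markers lacked a promoter peak, though 5 shared distal regions were assigned to them. Which cells gave the Foxp3 peak was not tested.

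The broad and cell cycle members ranged from 1.27 to 5.19 in replicate 1. Foxn2 had 3.93 and 3.84, and Foxj3 had 3.68 and 3.29. Foxk1, a repressor with roles in muscle progenitors and metabolism, had 5.19 and 2.90, and its relative Foxk2 had 3.14 and 2.47. The log2 ratio of replicate 2 over replicate 1 was -0.84 for Foxk1 and -0.34 for Foxk2. Foxm1, the G2 and M phase activator, had 2.31 and 1.61, in a window shared with Rhno1. Foxn3, which acts in the DNA damage checkpoint, had 2.17 and 1.98. Foxj2 had the lowest promoter of this group, at 1.27 and 1.05.

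In the mesenchymal and vascular group, Foxd2 had the height given above, in a window shared with its antisense neighbour Foxd2os. Foxc1, needed in the mesenchyme of eye, heart and vessels, had 2.26 and 1.37. Foxc2, a gene of lymphatic valves, had 2.08 and 1.17. Both FOXC genes were lower in replicate 2. Foxd1, a marker of kidney stroma, had 0.498 in replicate 1 only, and Foxs1, known from pericytes, had 0.647 in replicate 1 only. Foxl1, known from the mesenchyme under the gut epithelium, had no peak, although Foxc2 lies 11.77 kb away on chromosome 8 with its promoter open.

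Foxj1, the regulator of motile cilia, stood apart among the endodermal and epithelial genes. Its promoter reached 5.96 in replicate 1, the highest of the members, where it exceeded 92.9% of the genes open there, and 2.94 in replicate 2, above 74.7%. In replicate 2 the promoters of Foxn2, Foxj3 and Foxo6 were taller. The rank also depends on the 500 bp window. A region near an internal start site of Foxn3, outside that window and counted as distal, had 8.40 and 5.43. An exact Poisson interval on the steps, which covers counting error only, runs from 5.64 to 6.30 in replicate 1 and from 2.73 to 3.17 in replicate 2. Foxi3, a gene of ectodermal placodes, had 0.396 and 0.550, the lowest of the members open in both. Foxa3, a liver and endoderm factor, had 0.577 in replicate 1 only and Foxi2 had 0.438 in replicate 2 only. The remaining 5 had no promoter peak: Foxa2 (endoderm), Foxe1 (thyroid), Foxi1 (intercalated cells of the kidney), Foxn1 (thymus) and Foxq1 (hair and stomach).

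None of the 7 genes of the nervous system, neural crest and eye was open in both replicates. Foxd3, a neural crest factor, had 0.559 in replicate 1 only. Foxb2 had 0.413 in replicate 2 only, and Foxd4 had 0.354. These 3 heights lie below the medians of the open genes given below. Foxb1 (hypothalamus), Foxe3 (lens) and Foxn4 (retina and spinal cord) had no peak.

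In the last group Foxl2, the factor of ovarian granulosa cells, had 0.615 and 0.596, in a window shared with Foxl2os. Foxh1, a partner of SMAD proteins in nodal signalling, and the germ line genes Foxr1 and Foxr2 had no peak. Foxi3 and Foxl2 were the 2 members whose call in both replicates was lost in the stricter lists.

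Over the 21 members open in both replicates median heights of 2.17 (replicate 1) and 1.70 (replicate 2) were found, against 2.57 and 1.87 over the 13670 genes open in both. Ranks were taken among all genes open in a replicate, 14355 in replicate 1 and 14196 in replicate 2. By rank 13 of the 21 lay below the median gene in replicate 1 and 12 in replicate 2. Foxd2, at 2.52 in replicate 1, lay below 2.57 but above 51.5% of the genes ranked there. The family's promoters were spread across the range of open genes: in replicate 1 Foxi3 exceeded 2.96% of them and Foxj1 92.9%.

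The 8 members called in a single replicate all had low peaks, at most 0.647 in replicate 1 and 0.438 in replicate 2. Low peaks repeat less often in general. Of the 1568 genes with a peak at or below 0.647 in replicate 1, 67.4% were also open in replicate 2, against 95.2% of all genes open in replicate 1. At or below 0.438 in replicate 2, 54.2% of 764 genes were also open in replicate 1. The members repeated less often. Of those at or below 0.647 in replicate 1, 2 of 7 were also open in replicate 2. Of those at or below 0.438 in replicate 2, 0 of 3 were also open in replicate 1. The cutoffs are the tallest members called in a single replicate, so all such members lie at or below them. Whether low height accounts for the single calls was not tested.

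Foxs1 depends on where the window ends. Its peak in replicate 1 is 53 bp wide and lies at the 5′ end. A taller region shared by both replicates, at 1.12 and 0.888, is centred 0.62 kb upstream, just outside the 500 bp window, and was counted as distal. With 1000 bp on either side Foxs1, Foxa3 and Foxd4 were open in both replicates and the count rose to 24. That is 58.5% of members against 63.7% of all genes. With 250 bp the count was 20, without Foxo6, or 48.8% against 60.8%.

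The 21 members open in both replicates held 41 promoter regions shared by the replicates, 9 members with 1 region and 12 with several. For Foxn3 the tallest was not at the gene's own 5′ end. That end had a shared region of 1.19 and 0.725, while the peak of 2.17 and 1.98 lies at an internal start site 170.51 kb into the gene. The tallest distal region of the 41 members lies a further 0.93 kb on. Foxj3 had no region at its annotated 5′ end, and its peak lies at start sites 2.66 kb and more downstream, in a window shared with Frg2f1; RefSeq places the Foxj3 5′ end there. Foxp1 had its tallest peak at different start sites in the replicates. The region upstream of its 5′ end had 1.29 and 0.817, and the one 1.72 kb downstream had 1.07 and 0.871, so the replicates differ in order but both regions are shared. Counting only each gene's own 5′ end, 20 members were open in both replicates, without Foxj3. That is 48.8% against 56.5% of all genes.

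Between the replicates, the heights of 19 of the 21 members were lower in replicate 2. The median log2 ratio of replicate 2 over replicate 1 was -0.27 for the members and -0.41 for all 13670 genes open in both. Relative to the median of all genes, the ratios ran from -0.61 for Foxj1 to 0.89 for Foxi3. No member departed from that median by more than 1 on the log2 scale, against 0.468% of the open genes that did.

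Most open members, and 6 of the closed ones, had a promoter rich in CG. A promoter was called CpG-rich when the 500 bp around the gene's 5′ end had over 50% GC and an observed over expected CpG ratio over 0.6. This held for 28 members, 68.3%, against 47.5% of all genes. Of the 28, 20 were open in both replicates, 71.4%, against the 94.2% of all genes with such a promoter. Of the other 13 only Foxj3 was open in both, against 33.5% of all genes without one. The 43.6% GC at the annotated 5′ end of Foxj3 does not describe its open promoter, which lies further in and whose RefSeq stretch of 250 bases holds 34 CG.

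Of the 12 closed members 6 had a CpG-rich promoter, 50% against 4.75% of the 7057 closed genes. They were Foxb1, Foxe1, Foxe3, Foxl1, Foxn4 and Foxr1. Foxe1 and Foxe3 had the highest GC among them, 69.4% and 69.0%, and Foxb1 had a CpG ratio of 0.748 at 62.0% GC. The 12 closed members had no stretch of bases listed at a false discovery rate up to 0.05 in their windows in either replicate. Such a stretch was also missing for 6925 of the 7057 closed genes in replicate 1 and 6940 in replicate 2. These 6 promoters were thus closed by the peak lists and by the rate lists.

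**Figure D2:**
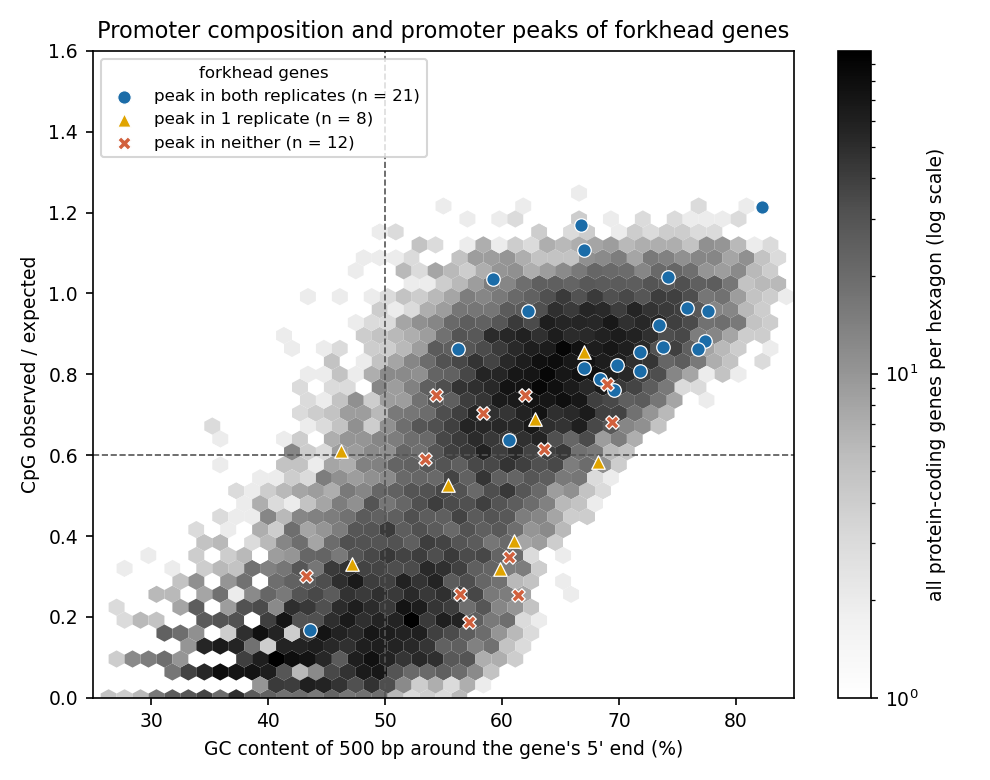
GC content (horizontal axis, %) and observed over expected CpG ratio (vertical axis) of the 500 bp around each gene's 5′ end, with forkhead genes as coloured symbols by promoter call and all protein-coding genes as grey hexagons (log colour scale). Dashed lines mark 50% GC and a ratio of 0.6. Open members crowd the upper right, where 6 closed members also lie, and the lone open member at the lower left is Foxj3.

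Distal regions were peaks outside the promoter windows of all protein-coding genes and were merged across the replicates. Each was given to the protein-coding gene with the nearest TSS within 100 kb. Start sites of noncoding genes made no window, so a distal region can lie at such a site. Forkhead genes received 102 regions shared by both replicates. At least 1 was given to 30 of the 41 members, 73.2%, against 47.5% of all genes, and the median was 2 a member, against 0 over all genes. Members also have larger territories, a median of 87.6 kb with them as nearest gene against 45 kb over all genes. Per 100 kb of territory, members had 2.11 shared regions against 1.74 for all genes. In the stricter lists the members' regions numbered 48, and 19 members had at least 1, 46.3% against 32.9% of all genes. The median was then 0 for members as for all genes, and it was 1 for members when the limit was 50 kb. The nearest gene need not be the one that a region acts on.

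In total 8 members had 5 or more shared regions, 19.5% against 6.63% of all genes, and together they held 60 of the 102. In the stricter lists 3 members had 5 or more, 7.32% against 2.77% of all genes: Foxo6, Foxo1 and Foxn3. Foxo1 had 12 and Foxo6 had 11. Foxn3 had 9, Foxp4 had 7 and Foxc1 had 6. Foxd2, Foxo3 and Foxp1 had 5 each. All 8 were open at the promoter in both replicates, and 3 of the 4 FOXO genes are among them.

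**Figure D3:**
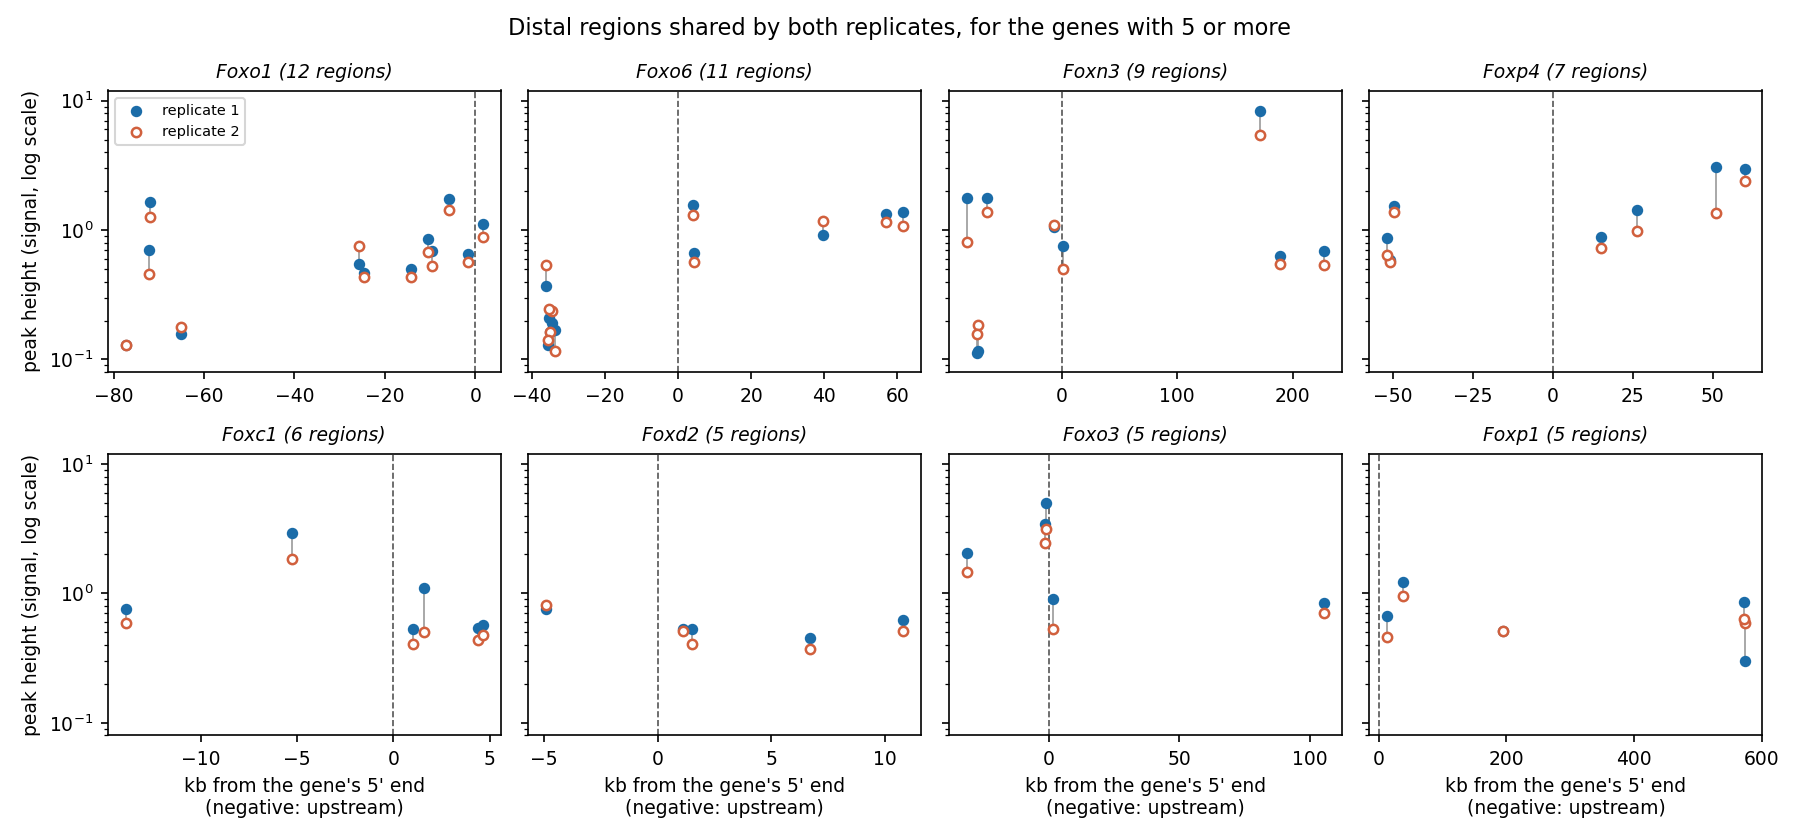
Shared distal regions of the 8 members with 5 or more, by distance of the centre from the gene's 5′ end (horizontal axis, kb, scale of its own per gene, negative upstream) and peak height (vertical axis, signal units, log scale) in replicate 1 (filled) and replicate 2 (open). Foxo6 shows a group of low regions from 33.7 to 36.07 kb upstream, and the region of Foxn3 at 171.44 kb is the tallest.

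The Foxo1 regions ran from 77.32 kb upstream to 1.71 kb into the gene. The tallest, 5.74 kb upstream at chr3:52262521-52262680, had 1.73 and 1.43. One 71.83 kb upstream had 1.64 and 1.26. Foxo1 thus had 11 shared regions upstream and 1 inside, in its intron.

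Low shared regions were found at both Foxo1 and Foxo6, and they made up more of the Foxo6 regions. At Foxo1 they lie 77.32 kb upstream, with 0.130 and 0.129, and 65.18 kb upstream, with 0.158 and 0.179. Foxo6 had 6 of its 11 in a patch from 33.7 to 36.07 kb upstream, between genes. Heights there ran from 0.130 to 0.368 in replicate 1 and from 0.117 to 0.538 in replicate 2. The other 5 were taller, from 0.661 to 1.57 in replicate 1 and from 0.563 to 1.32 in replicate 2. Of these, 2 lie in the intron and 3 beyond the 3′ end.

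Foxc1 had its tallest distal region 5.26 kb upstream, at 2.92 and 1.85, taller than its promoter in both replicates. It is the Foxc1 sequence shown above. Of its other regions 4 lie in the single exon of the gene and had 0.531 to 1.11 in replicate 1 and 0.409 to 0.504 in replicate 2. Foxd2 had 2 of its 5 in its own exon as well. Foxp4 had a pair in or beyond its 3′ part, 51.0 kb into the gene with 3.10 and 1.36 and 59.95 kb from the 5′ end with 2.97 and 2.39, both taller than its promoter in replicate 1. Foxo3 had the pair nearest to a promoter, 1.03 kb upstream with 4.96 and 3.13 and 1.41 kb upstream with 3.45 and 2.47. Both exceeded the promoter peak of Foxo3 in both replicates. All 5 regions of Foxp1 lie in its introns, from 13.34 to 573.28 kb into the gene, and the tallest had 1.22 and 0.959.

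The tallest shared distal region of the members, at 8.40 and 5.43, lies in an intron of Foxn3 and stood above 99.9% of all 29258 shared distal regions in both replicates. It is close to an internal start site of Foxn3, as given above, and just outside its window. Next came a region 34.06 kb upstream of Foxk1, between genes at chr5:142367321-142367560, with 7.30 and 4.52. It was taller than the Foxk1 promoter in both replicates. Foxc2 followed with a region 2.66 kb upstream, in an intron of the noncoding gene Gm20388, which had 5.42 and 3.28 against 2.08 and 1.17 at its promoter. Foxj2 had a pair of regions 8.85 and 8.46 kb upstream, with 4.83 and 3.78 and with 3.25 and 2.96. Both lie within 500 bp of a start site of the noncoding gene Gm5112. Its promoter, at 1.27 and 1.05, was far lower. At each of these genes the peak counted as distal was the taller one in both libraries, though at Foxj2 it may be a Gm5112 promoter.

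In all, 22 members had 1 to 4 shared regions. Foxe1 and Foxk1 had 4, and Foxa2, Foxi1 and Foxl1 had 3. There were 2 each for Foxd3, Foxd4, Foxi2, Foxj2, Foxn1, Foxn2, Foxp2 and Foxs1, and 1 each for Foxb1, Foxb2, Foxc2, Foxd1, Foxe3, Foxi3, Foxj1, Foxl2 and Foxq1. The 11 members without any included Foxa3, Foxh1, Foxj3, Foxk2, Foxm1, Foxn4, Foxo4, Foxp3, Foxr1 and Foxr2. Foxj3, Foxk2, Foxm1, Foxo4 and Foxp3 among them had an open promoter in both replicates.

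A closed promoter did not mean closed surroundings. Of the 12 members without a promoter peak, 8 had a shared distal region, 66.7% against 31.5% of all genes without a promoter peak. These members also have larger territories, a median of 60.9 kb against 36.3 kb over all such genes. Among the 6 with a CpG-rich promoter, 4 had one, against 57.0% of all such genes. Foxe1, the thyroid gene, had a region 38.7 kb upstream with 2.08 and 1.56. Foxe3 had one 21.6 kb upstream with 1.87 and 1.34. Foxl1 had a pair 2.28 and 2.51 kb upstream, with 1.45 and 1.04 and with 1.21 and 0.846, in Gm20388. Foxa2 had one 1.69 kb upstream with 1.40 and 1.07. Foxn1 had a pair in Slc13a2, the taller in replicate 1 with 1.77 and 1.03. The named regions of Foxe1, in an intron of Gm12446, of Foxl1 and of Foxn1 lie within another gene.

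Members' distal regions repeated between the libraries at a rate close to that of all. Of 362 regions found in either replicate 28.2% were shared, against 28.5% of all such regions. Of the members' regions 152 were found in replicate 1 only and 108 in replicate 2 only. Over all genes the balance ran the other way, with 28255 in replicate 1 only and 45208 in replicate 2 only. Regions of a single replicate are described for the 7 members with 20 or more regions.

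**Figure D4:**
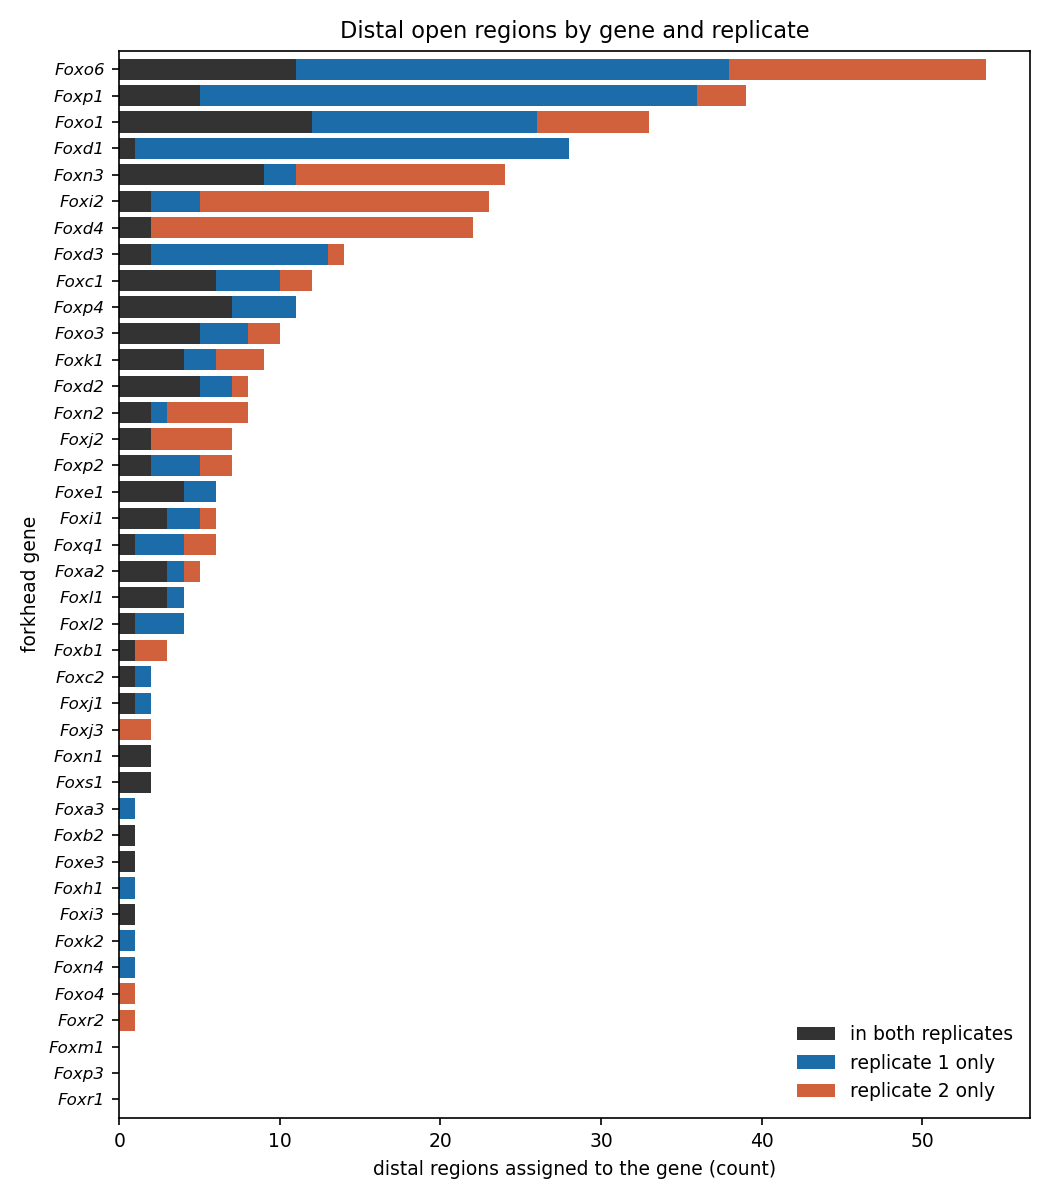
Number of distal regions assigned to each forkhead gene named in the text (horizontal axis, count), split into regions found in both replicates (dark), in replicate 1 only (blue) and in replicate 2 only (orange). Foxd1 and Foxp1 are dominated by replicate 1, Foxd4 and Foxi2 by replicate 2.

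Foxd1 had 27 regions in replicate 1 only, none in replicate 2 only and 1 in both. Foxp1 had 31 in replicate 1 only and 3 in replicate 2 only. Foxd4 had 20 in replicate 2 only and none in replicate 1 only, and Foxi2 had 18 in replicate 2 only and 3 in replicate 1 only. The imbalance thus ran in opposite directions at different members. These regions were low: the medians were 0.135 for Foxd1 and 0.247 for Foxp1 in replicate 1, and 0.148 for Foxd4 and 0.152 for Foxi2 in replicate 2. Over all genes, regions of a single replicate had medians of 0.233 in replicate 1 and 0.175 in replicate 2. Foxd1 and Foxd4 are also genes whose promoter was called in the same single replicate as their extra distal regions, and Foxi2 likewise. In replicate 1 only and in replicate 2 only, Foxo6 had 27 and 16 regions, Foxo1 14 and 7, and Foxn3 2 and 13.

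Of the 102 shared regions 56 lay upstream of the member, 27 inside it and 19 downstream. By annotation 51 were between genes, 36 in introns and 15 in exons. They had median heights of 0.768 (replicate 1) and 0.594 (replicate 2), against 0.726 and 0.630 over all shared distal regions.

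Short motif letters were counted on both strands in the central 150 bp of the shared regions. The forkhead letters TGTTTAC were in 0 of 102 regions near members, which allows up to 3.55% by an exact binomial interval for counting error, and in 1.55% of all 29258. The wider letters TGTTTNC, which include TGTTTAC, were in 4 regions, 1 each near Foxa2, Foxc1, Foxd2 and Foxn1. That is 3.92%, with an interval from 1.08 to 9.74%, against 10.7% of all regions. The AP-1 letters TGANTCA were in 5 regions, 4.90% against 5.87%, of which 2 lie near Foxo1. The TEAD letters GGAATG were in 7 regions, 6.86% against 9.09%, of which 2 lie near Foxe1. The CTCF core letters were in 17 regions, 16.7% against 19.6%, near 12 members. In the RefSeq promoters, TGTTTAC was in 0 of the 26 members with an entry and in 3.49% of the 16522 genes. A match is a run of letters and not a bound site.

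Genes known to act with FOXO factors, FOXM1 and FOXJ1 were taken from 4 lists. The FOXO control list holds genes that act upstream of FOXO factors, from the insulin receptor to AKT, 14-3-3 proteins and nuclear export, and all 15 were open in both replicates. Tall promoters of the list were those of the exportin Xpo1 at 7.98 and 6.66 and of the 14-3-3 gene Ywhaz at 5.36 and 3.99. Of 17 FOXO target genes 14 were open in both, with Sod2, a mitochondrial antioxidant enzyme, the tallest at 7.02 and 4.78. The other 3, Pck1, Igfbp1 and G6pc, are targets known from the liver and had no promoter peak in either replicate.

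All 12 FOXM1 target genes were open in both, led by the mitotic kinase gene Nek2 at 5.56 and 3.84. Of 12 cilium genes that FOXJ1 activates, 11 were open in both and Dnah5 was open in neither. Rsph1, a radial spoke gene, had 10.2 and 6.26, above the Foxj1 promoter, but the cilium list as a whole was lower, with a median of 1.10 and 0.959 over its open genes. The medians of the FOXO control list were 3.46 and 2.45. The shares of the lists stand beside 62.3% for all genes and 94.2% for all genes with a CpG-rich promoter. How many genes of the lists have such a promoter was not counted, so the shares are not read as particular to partners of forkhead factors.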

How the data were processed

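DNase-seq peak lists of 2 bladder libraries were used. Per the file descriptions, peaks and rates of a sample come from that sample's own filtered alignments on mm10; no source used here gives the tools or thresholds. The peak height is the signal deposited by the authors, on a scale the descriptions do not give; it was a whole multiple of 1 step per library for 100% of peaks, within 0.02 steps. The deposited rate lists give a false discovery rate, a p-value type of measure, up to 0.05. The longer of the 2 peak lists deposited per sample was taken as the looser. The shorter, called stricter, is no plain cut on height: its median height in replicate 2 was 0.258, against 0.321 in the longer. In the footprint lists the p-value column that the authors deposited is constant, and footprints are not reported. No source used here gives the read depth, so the number of steps stands for the precision of a height.

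Regions were peaks of the replicates merged at 1 bp of overlap. Promoter, distal and motif rules stand beside their results; a territory is the sequence within 100 kb that has the gene's TSS as its nearest. Medians over a state use genes open in both replicates. Python 3.11.15, numpy 2.4.6, pandas 2.3.3, scipy 1.17.1, pysam 0.24.0 and matplotlib 3.10.9 were used, and the assignment rules were tested on simulated data. Promoter sequences are those of NCBI RefSeq (GRCm38.p6), with 26 of the 41 members matched by symbol; symbols of the partner lists were matched to GENCODE M21 directly or through RefSeq synonyms. Every member is named except 1, which with 1 partner gene is not reported here but stays in the counts and medians; distal regions are named for members with 5 or more and for the 10 tallest, and partner lists by count and at most 3 tallest genes. Closed members' distal regions, one-replicate patches and partner genes without a peak were named after their values were seen. The members, lists and motifs were chosen with earlier results of these data known. No contrast exists, so no test was run.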

Additional observations from a re-analysis of the deposited data

How the results depend on the processing

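The members open in both replicates numbered 19 to 24 across the stricter lists, windows of 250 and 1000 bp and the genes' own 5′ ends. Their share was below that of all genes in each of these settings, as given above. Replicate 2 alone gave 24 and replicate 1 alone 26. Members open in 1 replicate only fell to 4 in the stricter lists. Shared distal regions near members fell to 48 in the stricter lists, near 19 members; without the demand for both replicates, replicate 2 alone gave 223 regions and replicate 1 alone 264. In the stricter lists Foxo6 had 9 regions, Foxo1 7 and Foxn3 6, Foxo3 and Foxp4 had 4, and Foxc1, Foxd2 and Foxp1 had 1 each. The forkhead letters rose to 3.92% only with TGTTTNC and were at 0 in whole regions and in the stricter lists. The median log2 ratio of the members, relative to all genes, was 0.14, and stayed between 0.05 and 0.17 under settings added after the data were seen. The cause of these shifts was not tested. No paired analysis was possible because the study has a single group. With 2 libraries, the heights of low peaks rest on few steps, 85 for the Foxd4 promoter in replicate 2. Some distal regions of a single replicate rest on fewer. They go down to 0.0459 at Foxd4 in replicate 2, where the step is 0.00417. At Foxd1 in replicate 1 they go down to 0.0559, where the step is 0.00466.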
